A study of Mus musculus with 6 samples.

Results

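The natriuretic peptide and mechanical stress genes are 10 genes of the 22180 that could be measured under a single symbol: the hormone genes Nppa and Nppb, the protease gene Corin, the receptor genes Npr1, Npr2 and Npr3, and the muscle genes Ankrd1, Csrp3, Fhl2 and Xirp2. They were taken by symbol. A probe set was used where the platform annotation pairs it with exactly 1 of these symbols, and of several probe sets of a gene the one with the highest mean over the 6 arrays was used. All 10 genes had such a probe set. Npr1 and Xirp2 had a second one each, so 12 probe sets were available in all. No filter on dim values was applied.

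The study asked which genes FGF21, a fibroblast growth factor that circulates as a hormone, regulates in oxygen-starved heart muscle cells. In the FGF21 group, 3 samples of cultured neonatal cardiomyocytes were kept for 12 h at 2% oxygen with 1 µg/ml FGF21. In the control group, 3 samples were kept for the same 12 h at 2% oxygen without it. The cells of both groups came from hearts of 1-day-old pups, of the strain labelled C57BL/6, and were enriched for myocytes by letting faster-attaching cells settle first, so that other heart cells were reduced but not removed. No sample at normal oxygen was analysed here. RNA of each sample was hybridised to 1 Affymetrix Mouse Gene 2.0 ST array. The titles call the samples biological replicates 1 to 3, but do not say whether they came from separate litters or cultures, and p-values therefore reflect only how these 6 samples vary, which may be technical.

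Natriuretic peptides are hormones that the heart releases when its walls are stretched. Atrial natriuretic peptide (from Nppa) and B-type natriuretic peptide (from Nppb) are made as longer precursors, and Corin, a membrane protease, cuts the first of these into its active form. Both hormones act on the receptor encoded by Npr1, which makes the messenger cyclic GMP, and are cleared by the receptor encoded by Npr3. The muscle genes encode proteins of the sarcomere and the cell junctions that respond to mechanical load. Nppa, Nppb and Ankrd1 are widely read as signs of a stressed or fetal-like myocyte.

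Nppb and Nppa are neighbours on mouse chromosome 4, with start sites 14822 bases apart in the RefSeq annotation of GRCm38.p6. The promoter windows of this pair are shown because the 2 hormone genes are compared below, with those of Ankrd1, which shares the M-CAT motif with Nppb, and of Csrp3, the member with the smallest p. RefSeq windows were found for 10 of the 10 genes, 12 in all, since Csrp3 and Fhl2 have more than 1 listed start. Each window runs from 250 bases before to 50 bases after the start site. Capitals mark matches, on either strand, to the GATA factor motif (read as AGATAA, also with a final G as AGATAG, or with an initial T as TGATAA and as TGATAG), the M-CAT motif of TEAD factors (CATTCC), the TATA box (TATAAA), the NKX2-5 motif NKE (TNAAGTG) and the AP-1 motif (TGANTCA). These motifs did not overlap one another in the 12 windows (0 overlaps).

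Nppb (chr4:147985650-147985949, plus strand): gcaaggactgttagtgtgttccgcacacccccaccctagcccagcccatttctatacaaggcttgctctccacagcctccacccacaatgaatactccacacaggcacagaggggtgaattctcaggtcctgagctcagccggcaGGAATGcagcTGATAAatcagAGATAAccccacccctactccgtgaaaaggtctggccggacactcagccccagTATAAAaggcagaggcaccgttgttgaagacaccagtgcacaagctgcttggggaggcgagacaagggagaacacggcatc

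Nppa (chr4:148000472-148000771, plus strand): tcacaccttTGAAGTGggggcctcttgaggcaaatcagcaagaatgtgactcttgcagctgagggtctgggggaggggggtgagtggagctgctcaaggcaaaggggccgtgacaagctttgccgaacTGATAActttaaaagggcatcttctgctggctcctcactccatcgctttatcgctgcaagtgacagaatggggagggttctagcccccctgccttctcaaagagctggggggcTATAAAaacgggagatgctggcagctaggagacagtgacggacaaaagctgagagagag

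Ankrd1 (chr19:36119795-36120094, minus strand): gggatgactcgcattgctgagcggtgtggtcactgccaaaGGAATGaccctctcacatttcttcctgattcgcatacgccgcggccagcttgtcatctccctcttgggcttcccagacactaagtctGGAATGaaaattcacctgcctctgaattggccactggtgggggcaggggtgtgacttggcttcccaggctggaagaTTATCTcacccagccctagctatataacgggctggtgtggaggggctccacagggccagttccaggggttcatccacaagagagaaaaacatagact

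Csrp3, window at the lower coordinate (chr7:48843622-48843921, minus strand): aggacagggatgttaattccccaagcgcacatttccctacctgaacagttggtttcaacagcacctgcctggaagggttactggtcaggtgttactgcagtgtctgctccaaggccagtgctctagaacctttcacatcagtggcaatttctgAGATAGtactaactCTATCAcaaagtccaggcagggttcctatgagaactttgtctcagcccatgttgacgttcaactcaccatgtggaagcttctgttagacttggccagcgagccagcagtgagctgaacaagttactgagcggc

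Csrp3, window at the higher coordinate (chr7:48848002-48848301, minus strand): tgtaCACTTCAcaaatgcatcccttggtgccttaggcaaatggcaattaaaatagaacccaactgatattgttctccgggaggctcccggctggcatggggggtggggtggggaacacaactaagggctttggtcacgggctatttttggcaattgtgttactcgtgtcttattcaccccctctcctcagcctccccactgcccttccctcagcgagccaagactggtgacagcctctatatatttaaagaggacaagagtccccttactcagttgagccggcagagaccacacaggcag

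The Nppb window held 1 M-CAT match at -105, 2 GATA matches at -95 and -84 and a TATA box at -31, all counted from the start site. The Nppa window held a GATA match at -122, an NKE match at -241 and no M-CAT letters. It held the TATA box letters at -9, nearer the annotated start site than those of Nppb, and whether they act as a TATA box was not tested. Ankrd1 had 2 M-CAT matches, at -210 and -123, and a GATA match at -47. Csrp3 had 2 GATA matches at -97 and -83 in the window at the lower coordinate and an NKE match at -246 in the other. Of the 12 windows, 6 held a GATA match, 2 an M-CAT match, 3 a TATA box, 2 an NKE match and 1 an AP-1 match. Over all 32851 promoter windows of this length, the shares were 29.8% for GATA, 14.7% for M-CAT, 13.6% for the TATA box, 11.5% for NKE and 7.81% for AP-1. The windows of Corin, Npr1, Npr2 and Npr3 held none of the 5 motifs. A match describes letters in a window, and no match says only that these letters are not in it.

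**Figure D1:**
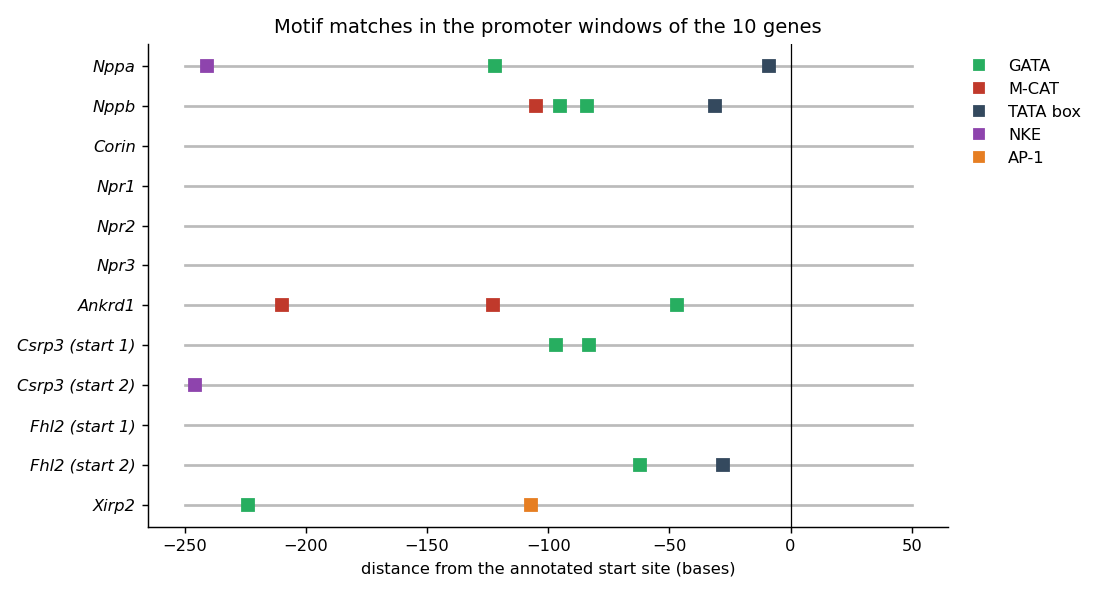
Positions of motif matches in the 12 RefSeq promoter windows of the 10 genes. The horizontal axis gives the distance from the annotated start site in bases, each grey line is a window, and coloured squares mark matches by motif. The Nppb row carries an M-CAT match at -105 and the Nppa row none, and the rows of Corin and the 3 receptors are empty.

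The arrays were alike in general, with correlations over all genes from 0.993 to 0.997 and medians of 5.76 to 5.79 with FGF21 and 5.81 to 5.83 without. The value table held 0 pairs of identical arrays. Values are log2 expression after the robust multi-array average (RMA), so a difference of 1 is a fold of 2, and the number of arrays limits the precision. Markers fixed for cardiomyocytes lay between the 97.9 and 99.95 percentile of gene levels (8 of 8 measured), and those of fibroblasts between the 83.7 and 99.9 percentile (7 of 7), so RNA of both kinds of cell was present. In such bulk samples, fewer cells of a type and less RNA per cell cannot be told apart.

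No member passed limma's test after adjustment over all 22180 genes at 0.05, and neither did any other gene (0 calls, or 0%), with the ordinary equal-variance fit also at 0. At an unadjusted p under 0.05, limma gave 4 of the 10 members, 3 higher with FGF21 (Nppb, Csrp3 and Npr3) and 1 lower (Fhl2). The share over all genes was 11.7%, with 6.59% higher and 5.11% lower, and among the 4436 brightest genes it was 16.2%. In 5 members the groups did not overlap, with FGF21 arrays above the controls for Nppb, Npr2 and Csrp3 and below them for Npr1 and Fhl2. Over all genes this held for 17.1%, with 8.99% above and 8.14% below. The exact two-sided permutation p of 3 arrays against 3 cannot go below 0.1. The median difference of the 10 members was 0.08 on the log2 scale. That of all genes was -0.01, with 47.8% higher, but bright genes were shifted upward: the median was 0.04 among genes above the median level, where 8 of the members lay, and 0.05 among the 4436 brightest, of which 70.7% were higher. Counts below of higher genes, of genes under the unadjusted threshold and of genes whose groups are apart are to be read against these shares. Regardless of sign, the median size of the difference was 0.19 for the members and 0.072 for all genes. The members were listed with earlier results for Nppb, Csrp3 and Fhl2 known, so these shares describe the list only.

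**Figure D2:**
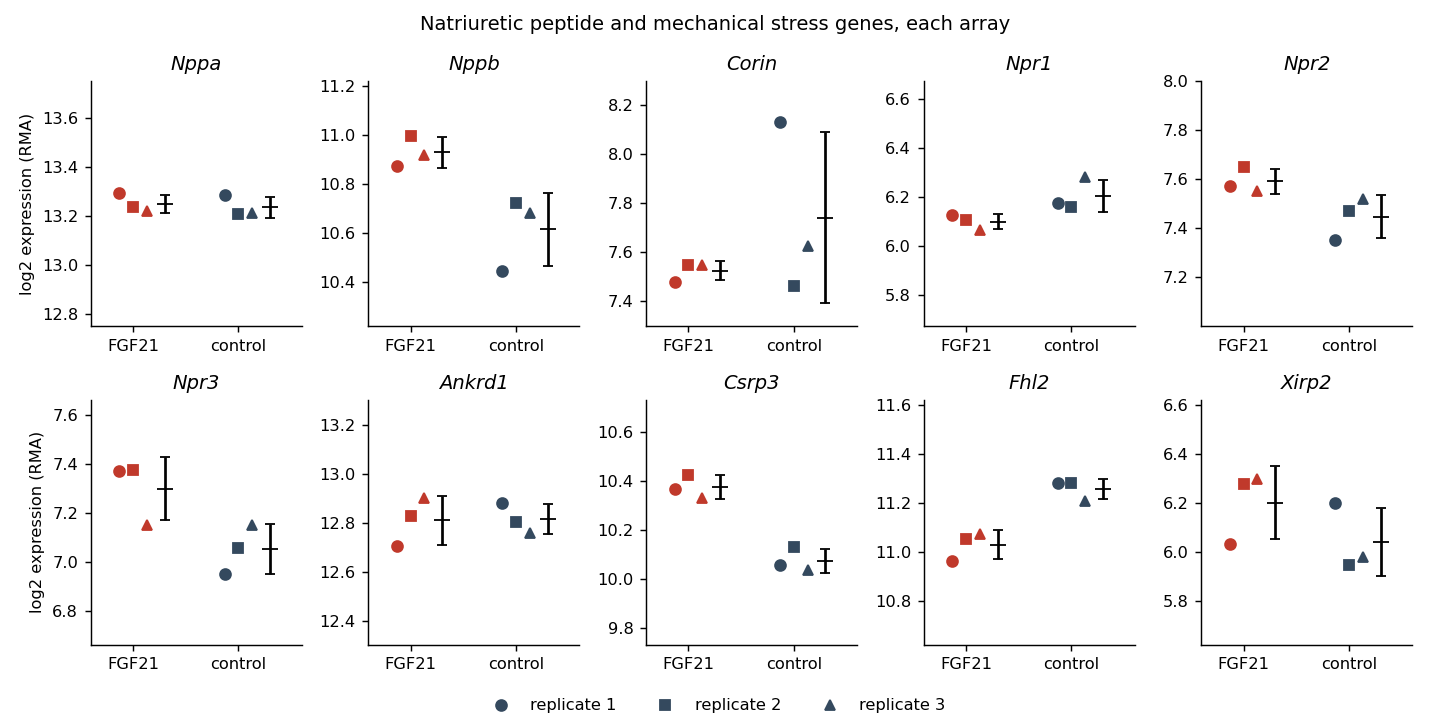
Log2 expression of the 10 genes on each of the 6 arrays, with FGF21 on the left and control on the right of each panel, and the mean with its SD (n = 3) beside the points. Marker shape gives the replicate number, and every panel spans 1 log2 unit. The groups are apart for Nppb, Npr1, Npr2, Csrp3 and Fhl2, and the control point of replicate 1 for Corin, at 8.13, stands above the other 5 arrays.

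Of the hormone genes, Nppb was higher with FGF21, while Nppa, at the top of the measured range, was level between the groups. Nppb, which encodes B-type natriuretic peptide, stood at 10.87, 10.999 and 10.92 with FGF21, against 10.45, 10.72 and 10.68 without. All 3 FGF21 arrays were above all 3 controls, and control replicate 1 was the lowest of the 6. Nppb differed by 0.31 ± 0.08 (SE) on the log2 scale, a fold of 1.24 with a 95% interval of 1.09 to 1.41, and limma's adjusted p was 0.231. Without control replicate 1 the difference was 0.23. Its window, shown above, is the only one of the 12 with matches to GATA, M-CAT and the exact letters TATAAA together. The Ankrd1 window has GATA and M-CAT matches too, and the letters TATATAA, which were not counted as a TATA box. How many of all promoter windows hold these motifs together was not counted. Whether motif letters bear on the difference of any member was not tested.

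Nppa, which encodes atrial natriuretic peptide, had 13.29, 13.24 and 13.22 with FGF21, against 13.29, 13.21 and 13.21 without. The groups overlapped almost entirely. Its log2 difference was 0.01 ± 0.06 (SE), with a fold interval of 0.918 to 1.11 and an adjusted p of 0.948 by limma, and its sign turned with quantile normalization applied again (-0.02). The gene lay at the 99.96 percentile of levels and was among the brightest of the table. How far a bright probe set can still show an increase was not tested.

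The difference of Nppb less Nppa within each array gives the change of one relative to the other. It was -2.42, -2.24 and -2.30 with FGF21, against -2.84, -2.49 and -2.53 without, on the log2 scale. The groups did not overlap, and the difference was 0.30. This pair was chosen after the values of both genes were seen, so the comparison restates them and has no test.

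By mean absolute distance between the deviations of 2 genes from their own means over the 6 arrays, the genes most like Nppb among 19394 compared were Rpl7, a ribosomal protein gene (0.0200), Sema3d, a secreted guidance factor gene (0.0207), and Cth, a gene of cysteine synthesis (0.0253). Their own differences were 0.30, 0.32 and 0.33, near that of Nppb because of how these genes were chosen. Those most like Nppa were Tpm1, a tropomyosin gene of the thin filament (0.00373), Vdac1, a channel gene of the outer mitochondrial membrane (0.0101), and Nxpe5 (0.0103). Nppa spanned only 0.083 over the 6 arrays, so genes that barely vary lie close to it. Nxpe5 was dim, at 4.71 to 4.83. With so few arrays and so many genes this likeness is a description, with no test.

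Atrial markers were followed because Nppa and Nppb are strong in atrial muscle. All 5 measured markers were higher with FGF21, with a median of 0.10, 1 of them at an unadjusted limma p under 0.05 and 0 after adjustment. That gene was Bmp10, a growth factor gene of atrial myocytes, at 7.80, 7.97 and 7.73 with FGF21, against 7.46, 7.40 and 7.66 without, a difference of 0.32 ± 0.09 (SE) with an adjusted p of 0.249 by limma. The mean of the atrial list ran from 8.307 to 8.427 with FGF21 and from 8.125 to 8.310 without, so the groups overlapped narrowly. With quantile normalization applied again the atrial median was 0.07. The atrial marker Sln differed by 0.13, and by -0.05 without control replicate 1. The 4 ventricular markers had a median of 0.01, and of -0.04 with quantile normalization applied again. The part of atrial cells in the Nppb difference was not tested.

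Corin, the protease gene, did not differ beyond the spread of its controls. It had 7.48, 7.55 and 7.55 with FGF21, against 8.13, 7.46 and 7.62 without. The FGF21 arrays lay within the range of the controls, and control replicate 1 stood apart from the other 5. The log2 difference was -0.22 ± 0.14 (SE), with an adjusted p of 0.578 by limma, and it was -0.02 without control replicate 1 and -0.36 without control replicate 2. Ryr2, the calcium release channel gene of cardiomyocytes, was likewise highest on control replicate 1, at 11.17, against 10.75 and 10.82 on the other controls and 10.71, 10.71 and 10.79 with FGF21. The same array was highest for Ttn, the titin gene, at 10.84, against 10.37 and 10.39 on the other controls. Of the other cardiomyocyte markers, Actn2, Tnni3, Myh6, Pln and Mybpc3 were also highest on that array. Tnnc1 was lowest there, at 11.29, and Tnnt2 was highest on FGF21 replicate 3, at 13.17. Several of the muscle gene partners listed below were lowest on control replicate 1, so muscle genes did not move together on it.

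The 3 receptor genes differed by small amounts and not in 1 direction. Npr3, which encodes the clearance receptor, had 7.37, 7.37 and 7.15 with FGF21, against 6.95, 7.06 and 7.15 without. FGF21 replicate 3 and control replicate 3 held the same value, so the groups touched. Npr3 differed by 0.25 ± 0.08 (SE) on the log2 scale, a fold of 1.19 with a 95% interval of 1.04 to 1.35, and limma's adjusted p was 0.321. With 1 array left out it ran from 0.20 to 0.32, and its unadjusted p was no longer under 0.05 without FGF21 replicate 1 or 2, without control replicate 1 or in the ordinary fit.

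Npr2, the receptor gene for C-type natriuretic peptide, had 7.57, 7.65 and 7.55 with FGF21, against 7.35, 7.47 and 7.52 without. The groups were apart by a narrow margin, 0.032. The log2 difference was 0.14 ± 0.07 (SE), with an interval of -0.01 to 0.30 and an adjusted p of 0.459 by limma. Npr1, the cyclic GMP-making receptor gene of both heart hormones, had 6.13, 6.10 and 6.06 with FGF21, against 6.18, 6.16 and 6.28 without. The FGF21 arrays were all lower, by at least 0.030. For Npr1 the difference was -0.11 ± 0.06 (SE) on the log2 scale, with an interval of -0.25 to 0.04 and an adjusted p of 0.547 by limma. A second Npr1 probe set differed by 0.03 ± 0.10 (SE) in the opposite direction, at means of 6.00 with FGF21 and 5.97 without. Npr1 lay at the 49.0 percentile of gene levels, and whether it was above background was not tested.

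Npr1 and Npr3 are also made by endothelial and endocardial cells. Of 8 endothelial markers, 6 were lower with FGF21, 5 of them at an unadjusted limma p under 0.05 and 0 after adjustment. Their median was -0.23. Over all genes, 11.7% had an unadjusted limma p under 0.05, with 5.11% lower. The mean of this list ran from 7.30 to 7.52 with FGF21 and from 7.57 to 7.78 without. Kdr, the VEGF receptor gene, differed by -0.61 ± 0.17 (SE), with -0.41 without control replicate 1, and Cdh5, the endothelial cadherin gene, by -0.44 ± 0.13. The markers Tie1, Tek and Nfatc1 were nearly level, at -0.04, 0.004 and 0.005. That count of 5 was 3 to 5 with 1 array left out and 0 in the ordinary equal-variance fit. The Npr1 probe set used thus had the sign of most of these markers, but the second Npr1 probe set differed by 0.03. Npr3 had the sign opposite to most of the markers. The part of endothelial cells in the values of Npr1 or Npr3 was not tested.

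The muscle genes divided. Csrp3 was higher with FGF21 and Fhl2 lower, each with its groups apart, while Ankrd1 and Xirp2 overlapped. Csrp3, which encodes muscle LIM protein, an actin- and Z-disc-binding protein needed for the myocyte's response to load, had 10.37, 10.43 and 10.33 with FGF21, against 10.06, 10.13 and 10.04 without. The lowest FGF21 array was 0.200 above the highest control, the widest separation of the 10 members. The log2 difference was 0.30 ± 0.06 (SE), a fold of 1.23 with a 95% interval of 1.12 to 1.36. Limma's adjusted p was 0.177, the smallest among the members, and by p the gene ranked 105 of 22180. It was between 0.0783 and 0.487 over the 15 alternatives. Neither Csrp3 window held an M-CAT match, and whether this bears on its difference was not tested.

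Fhl2 encodes another LIM-domain protein, which binds titin and acts as a transcription cofactor. It had 10.96, 11.05 and 11.07 with FGF21, against 11.28, 11.28 and 11.21 without. All 3 FGF21 arrays were below all controls, by at least 0.136. The log2 difference was -0.23 ± 0.06 (SE), so that the control level was 1.17-fold the FGF21 level, with limma's adjusted p at 0.250. Csrp3 less Fhl2 within each array was -0.59, -0.62 and -0.74 with FGF21, against -1.23, -1.15 and -1.17 without, a difference of 0.53. This restates the values of both genes on 1 scale and has no test.

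Ankrd1 encodes a titin-binding ankyrin repeat protein that is induced by stretch. It had 12.70, 12.83 and 12.90 with FGF21, against 12.88, 12.80 and 12.76 without. The groups overlapped, and FGF21 arrays were both the lowest and the highest of the 6. Ankrd1 differed by -0.00 ± 0.07 (SE) on the log2 scale, with a fold interval of 0.892 to 1.12 and an adjusted p of 0.989 by limma, and its sign turned with quantile normalization applied again (0.0037) or with median centring (0.03). Like Nppa it is a bright gene, at the 99.9 percentile. Its window holds M-CAT letters as that of Nppb does. Such letters lie in 14.7% of all promoter windows, and whether they bear on either gene's difference was not tested.

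Xirp2 encodes an actin-binding protein of the intercalated disc, the junction between myocytes. It had 6.03, 6.28 and 6.30 with FGF21, against 6.20, 5.95 and 5.98 without. FGF21 replicate 1 was below control replicate 1, and the groups overlapped. Its log2 difference was 0.16 ± 0.09 (SE), with an adjusted p of 0.538 by limma, and it was 0.25 without FGF21 replicate 1 and 0.24 without control replicate 1. A second, dimmer probe set had means of 4.86 with FGF21 and 4.97 without, a difference of -0.11 ± 0.11 (SE), and with the mean of both probe sets the difference of the gene was 0.02. The gene lay at the 48.3 percentile of levels, and whether it was above background was not tested.

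**Figure D3:**
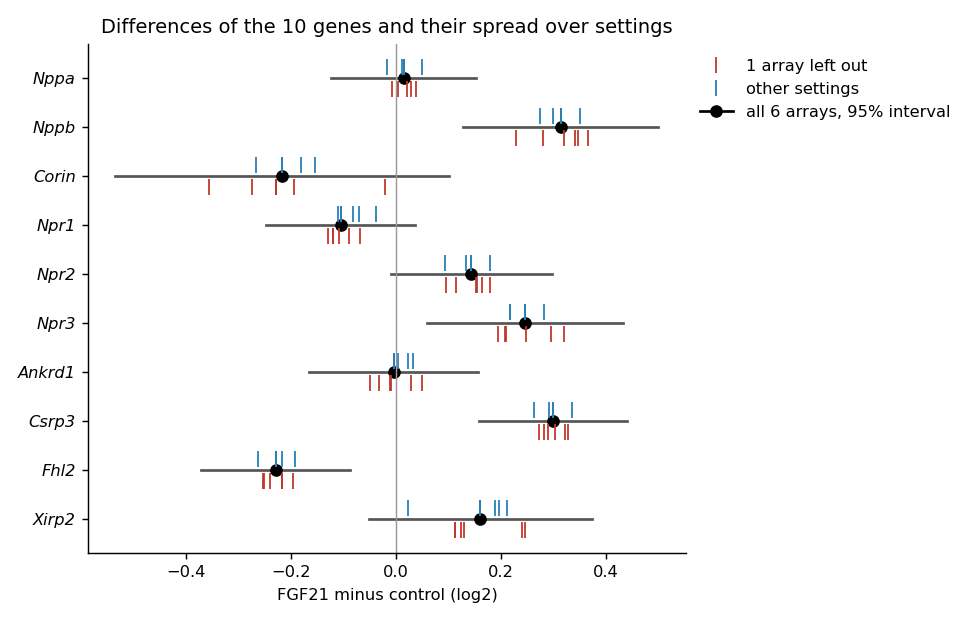
Differences of the 10 genes, FGF21 minus control, on the log2 scale. Black points and lines are the fit on all 6 arrays with its 95% interval, red ticks the values with 1 array left out, and blue ticks those under the other settings. The intervals of Nppb, Npr3, Csrp3 and Fhl2 do not include 0, the ticks of Ankrd1 lie on both sides of 0, and 1 red tick of Corin, at -0.02, lies far from the rest.

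Genes that work with the natriuretic peptides had small differences between the groups. Of the 14 listed, among them proteases that process or degrade the hormones, phosphodiesterases and cyclic GMP-dependent kinases, 14 were measured, 7 higher and 7 lower with FGF21, with a median of 0.01 that was -0.0056 without control replicate 1 and -0.02 with quantile normalization applied again. None passed limma over all genes (0 of 14), 0 had an unadjusted p under 0.05, and differences ran from -0.11 to 0.12. Pde5a, a phosphodiesterase gene that ends the cyclic GMP signal, was at 6.89, 7.12 and 6.89 with FGF21, against 6.77, 6.96 and 6.83 without, a difference of 0.12 ± 0.08 (SE). Gucy1b1, a subunit gene of the soluble guanylyl cyclase, differed by 0.10 ± 0.07. Ostn, whose product binds the clearance receptor encoded by Npr3, differed by -0.08 ± 0.06 and was dim, at the 11.6 percentile.

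Among partners of the muscle genes at the Z-disc, on titin and at integrins, 19 of 20 were measured, 13 higher and 6 lower with FGF21, with a median of 0.05. All 19 lay above the median level, so that count and median are near those of bright genes in general, and the median was 0.02 without FGF21 replicate 1 or without control replicate 2, 0.03 without control replicate 3 and -0.0089 with quantile normalization applied again. None passed after adjustment (0 of 19), and 2 had an unadjusted limma p under 0.05, both higher. Over all genes 11.7% had such a p, and among the 4436 brightest 16.2%. Ankrd23, a titin-binding relative of Ankrd1 in the same protein family, stood at 9.13, 9.50 and 9.28 with FGF21, against 8.81, 9.02 and 8.81 without. All 3 FGF21 arrays were higher, and the difference of 0.42 ± 0.10 (SE), a fold of 1.34, exceeded that of each of the 10 members, with an adjusted p of 0.196 by limma. It ran from 0.33 to 0.51 with 1 array left out. Piezo1, the gene of a stretch-gated ion channel, had 8.51, 8.49 and 8.34 with FGF21, against 8.22, 8.34 and 8.30 without, a difference of 0.16 ± 0.07. Ttn itself differed by -0.22 ± 0.12, and by -0.07 without control replicate 1.

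Of 7 transcripts often read as reporters of load, calcineurin or YAP activity, 6 were higher with FGF21, with a median of 0.09 and differences from -0.04 to 0.29. All 7 lay above the median level, and 70.7% of the brightest genes were higher too, with a median of 0.05. The median of the 7 was 0.06 with quantile normalization applied again. None passed after adjustment (0 of 7), and 1 had an unadjusted limma p under 0.05. That was Ccn2, a matricellular gene that YAP and TEAD factors induce, at 10.32, 10.26 and 10.15 with FGF21, against 9.95, 9.94 and 9.98 without. Its difference was 0.29 ± 0.07 (SE), with an adjusted p of 0.193 by limma, but a second, dimmer probe set differed by 0.02. Rcan1, a calcineurin-induced gene, differed by 0.14 ± 0.07 and Lats2, a kinase gene of the Hippo pathway, by 0.14 ± 0.07. The groups did not overlap for 4 of the 7 genes, Ccn2, Rcan1, Lats2 and Ccn1, each higher with FGF21. Over all genes this held for 17.1%, with FGF21 higher in 8.99%. The list was chosen with earlier results known, so the count describes the list only.

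Regulators known to act on Nppa, Nppb or stretch genes were 18, of which 18 were measured, 11 higher and 7 lower, with a median of 0.05. All 18 lay above the median level, and the median equals that of the 4436 brightest genes at this rounding. It was 0.0165 without control replicate 2, 0.0152 without control replicate 3 and -0.01 with quantile normalization applied again. None passed after adjustment (0 of 18), and 1 had an unadjusted limma p under 0.05. That was Srf, the gene of serum response factor, at 8.12, 8.33 and 8.07 with FGF21, against 7.92, 7.87 and 7.999 without, a difference of 0.24 ± 0.08 (SE) with an adjusted p of 0.316 by limma. Mrtfa, whose product is an actin-sensing cofactor of serum response factor, differed by 0.14 ± 0.06 with its groups apart. Rest, a repressor gene of fetal cardiac genes, differed by 0.09 ± 0.07.

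Markers of the remaining cell types were followed in the same way, and none passed after adjustment in any list. Of 8 cardiomyocyte markers, 7 were lower with FGF21, and their median of -0.05 was -0.0068 without control replicate 1, with 0 at an unadjusted limma p under 0.05, and the list mean ran from 11.48 to 11.54 with FGF21 and from 11.49 to 11.68 without. Of 7 fibroblast markers, 4 were higher and 3 lower, with 0 under that threshold and list means of 10.68 to 10.78 with FGF21 and 10.70 to 10.76 without. Of 6 smooth muscle markers, 2 were higher and 4 lower, with 1 under the threshold in each direction. The lower one was Rgs5, at -0.49 ± 0.15 (SE), with -0.28 without FGF21 replicate 1 and a second probe set at -0.55. The higher one was Myh11, at 0.16 ± 0.06. Of 5 leukocyte markers, 4 were higher, with a median of 0.14 that was 0.0436 without control replicate 1 and 0.0879 without FGF21 replicate 2, and 1 passed the unadjusted threshold in each direction. Of 4 epicardial markers, 3 were higher, with a median of 0.15, or 0.09 with quantile normalization applied again, and 2 under the threshold, and their list mean ran from 7.80 to 7.99 with FGF21 and from 7.72 to 7.80 without. The part of these cells in the members' differences was not tested.

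**Figure D4:**
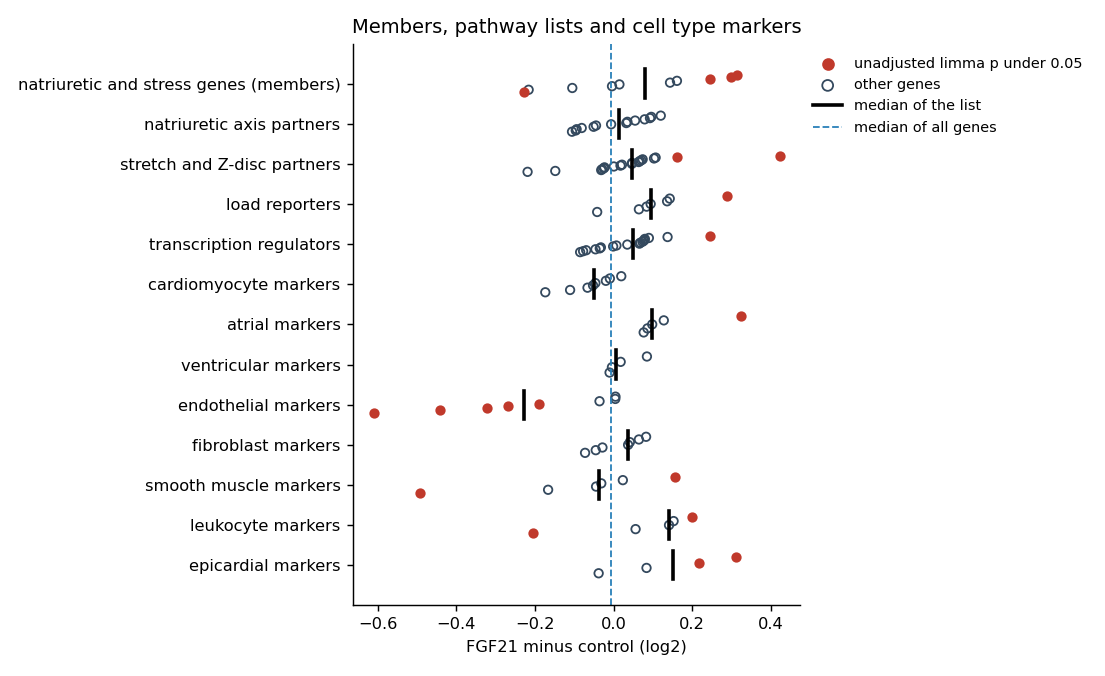
Differences, FGF21 minus control, on the log2 scale for the 10 members, 4 pathway lists and 8 lists of cell type markers, 1 point a gene. Filled red points have an unadjusted limma p under 0.05, black bars are list medians, and the dashed line is the median of all genes, -0.01. Members spread from -0.23 to 0.31, the natriuretic axis partners from -0.11 to 0.12, and the endothelial markers reach -0.61.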

How the data were processed

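RNA of 6 samples was measured, 3 with FGF21 and 3 without, with groups and replicate numbers from the sample titles. Per the submitters' processing notes, the authors ran RMA with affy under R 3.2.2, and the deposited log2 values are its output. For the chip definition and genome build, nothing is given in the sources used here. RMA as a rule equalises the arrays' probe distributions before summarising them, yet the deposited medians still differed slightly between the groups. The platform annotation paired 23521 of 41345 rows with 1 symbol and 1814 with several, and 16010 were not listed. For 1082 genes with several rows the row of highest mean was used, leaving 22180 genes.

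FGF21 minus control was fitted on all 6 arrays (lmFit and eBayes of limma 3.58.1, R 4.3.3, two-sided and with no covariate), with Benjamini-Hochberg adjustment over all genes, a threshold of 0.05 and 95% intervals. The fit was run on simulated data with independent noise and added differences larger than that of any member. That run does not bear on differences of the members' size. The 10 members, the lists and the motifs were chosen with earlier results of these data known. Genes named from each pathway list are the 3 of smallest p; marker genes named, and the pairs of genes compared within arrays, were chosen after their values were seen. Nppa and Nppb were each given the 3 genes of most similar pattern, predicted genes left out. Promoter windows are from RefSeq, GRCm38.p6. Of the stretch list, Ilk is not reported here. Alternatives were a replicate block, leaving out each array, all rows, the mean of a gene's rows, a filter on dim genes, 2 normalizations, a trend and robust prior, array weights and an ordinary fit.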

Additional observations from a re-analysis of the deposited data

How the results depend on the processing

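No member passed an adjusted p of 0.05 by limma under any of the 15 alternatives (0 of 10, or 0 of the 8 retained when dim genes were left out), and the smallest adjusted p was 0.0783, for Csrp3 with a trend and robust prior. Nppb, Csrp3 and Fhl2 kept their direction and an unadjusted p under 0.05 in all 15, and Npr3 in 11. Nppa differed by -0.0066 to 0.0390 with 1 array left out and by -0.0167 with quantile normalization applied again. Ankrd1 differed by -0.0497 to 0.0491 with 1 array left out, by 0.00366 with quantile normalization applied again, by 0.0319 with median centring and by 0.0231 with array weights. The median difference of the members was 0.0790, but 0.0191 with the mean of a gene's rows, where Npr1 and Xirp2 each take in a second row of opposite sign, and 0.115 with median centring, which lifts every FGF21 array relative to the controls. Over all genes, 0 passed an adjusted p of 0.05, against 58 without dim genes, 16 with the trend and robust prior, 12 with median centring, 5 with quantile normalization and 2 with the mean of rows, with array weights or without FGF21 replicate 1. At an unadjusted p under 0.05 there were 2594 genes, and 1710 without FGF21 replicate 2. Same-numbered arrays correlated at 0.103, 0.158 and 0.00653 in their deviations from the group means. Arrays of different numbers correlated at -0.160 to 0.0416, and 4 of the 6 arrays were closest to their own number. The titles do not state a pairing, so the main fit took the arrays as unpaired, and a replicate block was an alternative. With the replicate block, 4 members had an unadjusted p under 0.05 and 0 an adjusted one, as without it, and the median difference was 0.0790. Npr1 and Xirp2 lie below the median level, and whether they were above background was not tested.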
